A study of Saccharomyces cerevisiae and Saccharomyces cerevisiae S288C with 30 samples.

Results

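Branch-seq, a sequencing assay for intron lariats of the budding yeast Saccharomyces cerevisiae, listed 466 branch points, of which 57.5% were at positions the authors did not count as annotated. These unannotated branch points, all rows of the authors' list of unannotated sites with a typical 5′ splice site, are described here. Their names split them into 3 classes. The first holds 23 sites (8.58%) in 22 genes that also had an annotated branch point. The second holds 130 sites (48.5%) in 127 genes without one. The third holds 115 sites (42.9%) that the authors marked as lying in no intron or listed transcript. The other 42.5% of the 466 branch points are annotated and serve for comparison.

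When a yeast intron is removed, its 5′ end is first joined to an adenosine near its 3′ end, the branch point, and the intron leaves as a lariat. The debranching enzyme Dbr1 opens the lariat loop, after which the intron is degraded. Branch points in yeast introns usually carry a well conserved motif that the U2 snRNA pairs with, and the branch point binding protein, encoded by MSL5, recognises it first. Nonsense-mediated decay, which needs Upf1, removes many transcripts whose retained introns carry early stop codons.

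For Branch-seq, lariat RNA was cut from a 2-dimensional gel in 3 fractions (top, middle and bottom), opened with the enzyme DBR1, tailed, copied, circularised and read from both ends. The labels used here give no strain or genotype for those cells, and the deposited values are 1 column for the fractions together, from 1 experiment. Every Branch-seq value below therefore stands without a replicate. In Lariat-seq, 1 library of lariat RNA from the same kind of gel was copied with random primers, and reads across the branch were counted. RNA-seq gave PSI, a fraction, for 405 splicing events in 26 libraries, 2 in each of 13 groups. The TruSeq groups, labelled polyA, were dbr1_null, upf1_null and WT, in rich medium, with no strain in the labels. The Ribo-Zero groups in strain S288c were dbr1, +rap and -rap, and those in strain SK1 were sk1 and cells after 0, 3, 6, 7.5, 8.5 and 12 h in sporulation medium. The dbr1 group has no control named for it and was set against -rap, so the cultures' genotypes and their other differences cannot be told apart. The labels do not define rap or PSI. From its values PSI reads as the share of transcripts that keep the intron.

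Unannotated branch points carried few reads. Branch-seq values are CPM, read counts scaled by the authors, in which 1 read is worth 0.0417 CPM. Intervals below are exact 95% Poisson or Clopper-Pearson intervals. With 1 pooled value per site they cover the counting error of reads only. The reads carry no molecular identifiers, so copies of 1 molecule cannot be told from separate molecules, and the intervals can be too narrow. The median unannotated site had 0.626 CPM, or 15 reads, with quartiles at 0.167 and 2.10 CPM. The median annotated site had 113 CPM, or 2699 reads. In all, 49748 reads fell on the unannotated sites and 980500 on the annotated sites, so that unannotated sites held 4.83% of the listed reads (interval 4.79 to 4.87%).

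The unannotated class was uneven. Values ran from 0.0417 to 465 CPM, and 3 sites passed 100 CPM, 24 passed 10 CPM and 102 passed 1 CPM, against 103, 129 and 149 of the annotated sites, which are fewer in all. The 2 highest sites held 41.5% of all reads on unannotated sites and the 10 highest held 70.4%. At the other end, 58 unannotated sites (21.6%) and 16 annotated sites (8.08%) rested on 3 reads or fewer. Sites outside listed introns and transcripts were the thinnest class, with 34 of 115 (29.6%) at 3 reads or fewer, against 24 of 130 sites in genes without an annotated branch point and none of the 23 sites beside one. The medians of the 3 classes were 1.38 CPM in genes with an annotated branch point, 0.668 CPM in genes without one and 0.459 CPM outside genes.

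**Figure D1:**
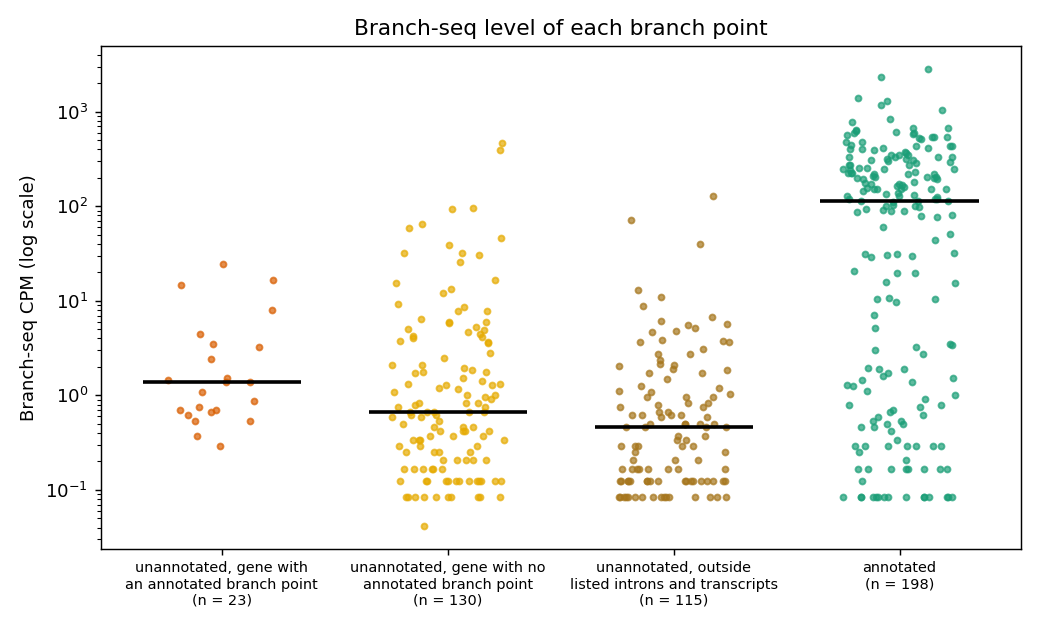
Branch-seq CPM (log scale) of every branch point in the 3 classes of unannotated sites and in annotated sites, with 1 point per site and a bar at the median. The medians of the unannotated classes lie at 1.38, 0.668 and 0.459 CPM and that of annotated sites at 113 CPM, while the highest unannotated sites reach into the range of the annotated ones.

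The highest unannotated sites lay in genes with no annotated branch point. RBS1, whose product takes part in assembly of RNA polymerase III, had 465 CPM (interval 457 to 474; 11156 reads) at chrIV:122159 on the plus strand (Branch-seq positions are on sacCer2, as deposited), the 25th highest of all 466 sites. BCK2, which promotes the transcription of G1 cyclin genes, had 395 CPM (387 to 403) at chrV:517901, plus strand, the 34th highest. Both sites were above the median annotated site, and no other unannotated site in a gene was.

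A second tier of genes fell between 30 and 100 CPM. MRM2 and PUS2, which encode a mitochondrial rRNA methyltransferase and a mitochondrial tRNA pseudouridine synthase, had 95.2 CPM (chrVII:253205, minus strand) and 94.5 CPM (chrVII:383554, plus strand). The intervals of these values, 91.3 to 99.2 and 90.6 to 98.4, overlapped. USV1, a zinc finger transcription factor of stress responses, had 65.8 CPM at chrXVI:115269. PRO3, which makes proline, had 46.4 CPM at chrV:201997.
RCI50 followed with 38.8 CPM at chrXI:193010. FES1, a nucleotide exchange factor for Hsp70, had 32.3 CPM at chrII:443734. BDF2, a bromodomain protein whose mRNA is a known target of spliceosome-mediated decay, had 31.9 CPM at chrIV:331277.

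The highest of the 115 sites outside listed introns and transcripts had 129 CPM (124 to 133; 3081 reads) at chrXIII:559830, plus strand. It ranked 95th of all sites and lay 22303 bases from the nearest annotated branch point on its strand. Distances to annotated branch points were taken on the same strand only. Sites at chrXII:982469, minus strand, with 71.8 CPM and at chrVII:436364, plus strand, with 39.9 CPM came next. The chrVII site was 636 bases from the annotated branch point of HOP2, a meiotic recombination gene. The other 7 of the 10 highest had 13.1 CPM (chrXV:845022), 10.9 (chrXVI:146507), 8.89 (chrXIV:429575), 6.72 (chrXI:490071), 6.17 (chrVII:143935), 5.67 (chrVIII:148769) and 5.51 CPM (chrII:342756). Apart from the chrVII:436364 site, the closest of these to an annotated branch point on its own strand was the chrII site, at 9391 bases.

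Most unannotated sites were thus far from annotated ones on their strand, and the other strand was not searched. On the same strand, none of the 130 sites in genes without an annotated branch point lay within 1000 bases of one. Of the 115 sites outside genes 2 did, and of the 23 sites in the first class 21 did. The first class was chosen by a gene shared with an annotated site, so its closeness is partly set by definition. Strand did not separate the sites, with 139 on the plus and 129 on the minus strand. All 150 sites with a gene of known strand lay on that gene's strand, which the authors' naming may have required. They were found on all 16 chromosomes, from 3 sites on chromosome I to 36 on chromosome VII.

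In the 22 genes with both kinds of site, the unannotated site was usually a minor one beside the annotated branch point. It had fewer reads in 19 of 23 pairs, and its median share of the reads of the pair was 1.83%. In 16 pairs the positions were within 50 bases of each other, from 11 to 49 bases, 10 upstream and 6 downstream. The other 7 lay 150 to 1742 bases away. In SPO1, MAF1 and ECM9 the distance was 1742, 1360 and 546 bases. Their annotated introns with a PSI value have 84, 80 and 104 bases, so the share there does not compare sites within that intron.

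The close pairs are best seen in the abundant ones. In CPT1, which makes phosphatidylcholine, the unannotated site 24 bases downstream had 16.6 CPM against 537 CPM at the annotated site, a share of 3.00% (interval 2.71 to 3.30). In TDA5, 12 bases downstream, it had 7.97 CPM against 194 CPM, and a second unannotated site 49 bases downstream had 0.542 CPM. CMC4, a mitochondrial intermembrane space protein, had 3.50 CPM 11 bases upstream, against 115 CPM.
BOS1, a SNARE of transport from the endoplasmic reticulum to the Golgi, had 3.21 CPM 21 bases upstream, against 113 CPM. ERV1, a mitochondrial sulfhydryl oxidase, had 2.42 CPM 17 bases upstream, against 130 CPM. The shares in CMC4, BOS1 and ERV1 were 2.96, 2.76 and 1.83%. Lower shares were measured in TMH18 (1.14%), in EFM5, a methyltransferase of elongation factor 1A (1.54 against 402 CPM, 0.383%), and in MOB1, of the mitotic exit network (0.709 against 603 CPM, 0.117%).

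LSM2, an Sm-like protein of the U6 snRNP, stood apart from these. Its unannotated site at chrII:170731, 40 bases upstream, had 24.4 CPM (586 reads) against 30.0 CPM (718 reads) at the annotated one, a share of 44.9% (42.2 to 47.7). Of the 15 close pairs whose annotated site was above 1.5 CPM, LSM2 alone had a share over 10%, and the median share of the 15 was 0.836%.

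In 4 pairs the unannotated site was the higher one. RPL37A, of the large ribosomal subunit, had 14.6 CPM (349 reads) 269 bases upstream, against 0.292 CPM (7 reads), a share of 98.0% (96.0 to 99.2). RPL36B had 16 reads 150 bases upstream, against 4 reads. SPO1, a meiotic phospholipase-like gene, had 107 reads 1742 bases downstream, against 30 reads, a share of 78.1% (70.2 to 84.7). SEC14, the phosphatidylinositol transfer protein, had 9 reads 19 bases upstream, against 2 reads.

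These 4 pairs, with RPL26B (13 reads 397 bases upstream, against 15) and RPL21A (17 reads 269 bases upstream, against 22), are the 6 pairs whose annotated site had at most 1.25 CPM. In the other 17 pairs the annotated site had at least 30.0 CPM. A low annotated value raises the share by construction, so the share in these 6 genes speaks for both sites. In the 4 ribosomal protein genes of the group the unannotated site was upstream of the annotated one by 150 to 397 bases.

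**Figure D2:**
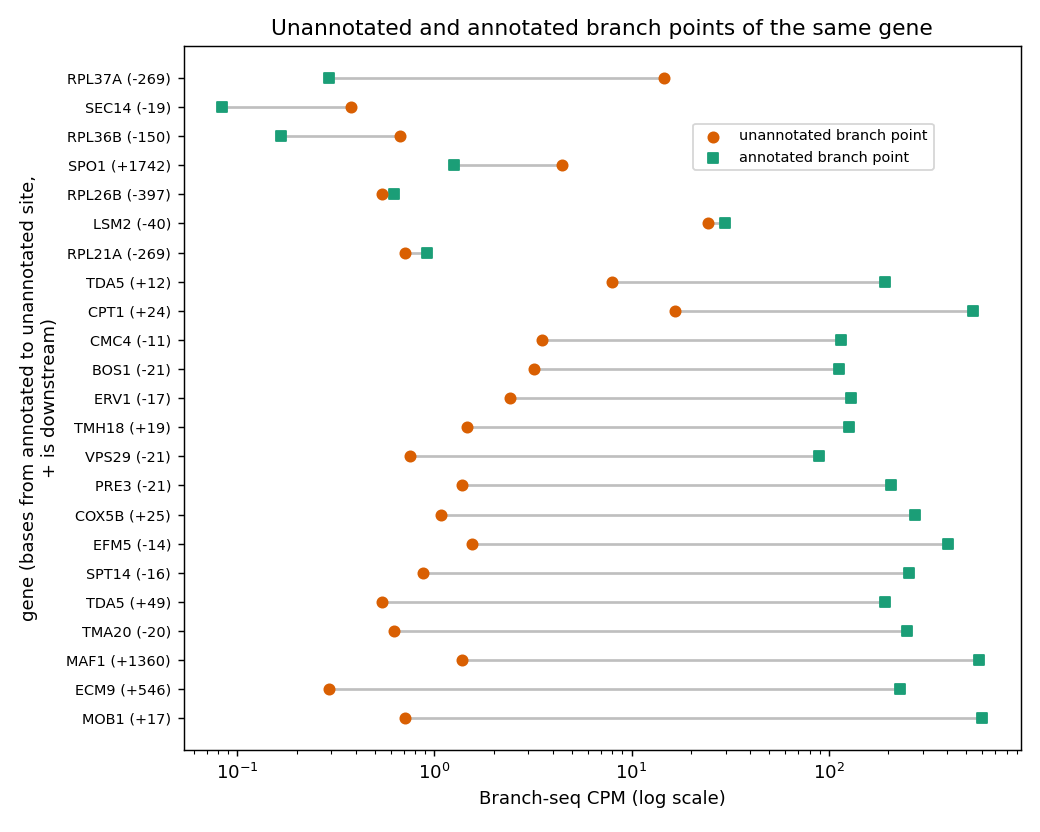
Branch-seq CPM (log scale) of the unannotated and the annotated branch point of the same gene, 1 row per unannotated site, ordered by its share, with the distance between them in bases. In RPL37A, SEC14, RPL36B and SPO1 the unannotated site lies to the right of the annotated one, and from TDA5 downwards it lies far to the left.

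Ribosomal protein genes hold many of the introns of yeast and form the longest of the gene lists. Of 138 such genes 9 had an unannotated site, with 0.542 to 14.6 CPM and a median of 4.97 CPM, while 47 had an annotated branch point, with a median of 0.459 CPM. The median over all sites was 0.626 CPM for unannotated and 113 CPM for annotated ones. The 9 were RPL37A (14.6 CPM), RPS6B (6.43), RPL13B (6.05), RPL30 (5.26), RPS7A (4.97), RPS8B (1.75), RPL21A (0.709), RPL36B (0.668) and RPL26B (0.542). Branch-seq values are levels of recovered lariats, not of mRNAs. Many of these genes have a near-identical paralog, and how reads shared by paralogs were counted is not given in the sources used here.

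Other lists held few members. Of 31 splicing and RNA processing genes 3 had unannotated sites. These were LSM2, MTR2, an mRNA export factor (13.4 CPM), and MSL5 itself, with 3.71 and 1.42 CPM at chrXII:382387 and chrXII:382366, 21 bases apart. OLA1 and YGL114W also had 2 sites, 1245 and 395 bases apart, the lesser of each with 2 reads, and no gene had more than 2.
Of 17 genes with introns known to be regulated, RPL30 and MTR2 had a site. EFB1, which encodes elongation factor 1B and hosts a snoRNA in its intron, had 4.30 CPM and was 1 of 8 snoRNA host genes and, with SUI3 (0.209 CPM), 1 of 2 among 16 translation factors. SNR17B, 1 of the 2 U3 snoRNA genes, had 0.668 CPM, SPO1 was the 1 of 15 meiosis genes, and HSP104 (0.250 CPM) the 1 of 19 chaperone genes. None of 19 glycolysis and fermentation genes and none of 15 cytoskeleton genes had an unannotated site, although 5 of the cytoskeleton genes had an annotated one. In all, 149 gene names had an unannotated site. The share over all genes of the genome was not computed, so no list is shown to be rich or poor in such sites.

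Lariat-seq gave a second view of 15 genes with an unannotated Branch-seq site. Its positions are on sacCer3, so the assays were joined by gene name and positions are given side by side without being compared. Of its 58 branch sites 17 were marked as new branch points by the authors, and 7 of the 17 were assigned to these genes. The sites of BDF2, CPT1 and TAF11 lay within the gene as annotated in RefSeq, and those of MSL5, RBS1, LSB6 and RPS8B lay 49, 56, 252 and 264 bases outside it. BDF2 had 23 reads (sacCer3 chrIV:331278, 89 bases from the 5′ splice site), RBS1 had 19 (chrIV:122160, 82 bases) and CPT1 had 11 (chrXIV:380701, 80 bases).
MSL5 had 7 reads at 88 bases. TAF11, a TFIID subunit, had 4 reads at 85 bases and 0.501 CPM in Branch-seq. LSB6, a phosphatidylinositol 4-kinase, had 3 reads at 108 bases and 0.250 CPM. RPS8B had 2 reads at 103 bases (chrV:362836) and 1.75 CPM.

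The other 8 genes had a Lariat-seq site at an annotated branch point. SEC14 had 267 reads there, against 2 reads at its annotated site in Branch-seq, and SNR17B had 18, LSM2 11, EFM5 10, TMA20 4, RPL36B 4, VPS29 2 and PRE3 2 reads. The order of genes thus differed between the assays, each with 1 library. No Lariat-seq site was assigned to BCK2, the second gene in Branch-seq. The 17 new branch points of Lariat-seq lay 80 to 203 bases from the 5′ splice site (median 108), against 66 to 383 bases (median 117) for the 41 annotated ones, and together they had 137 of 3541 reads.

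The PSI table measured 49 events in 39 genes with an unannotated branch point. These were 29 annotated introns, 15 unannotated introns in 13 genes, 2 events with a choice of 3′ splice site (A3SS) and 3 with a choice of 5′ splice site (A5SS), for which the direction of PSI is not given. Among them are 7 annotated introns in genes without an annotated Branch-seq site. The unannotated sites of those 7 genes, EFB1, MPT5, QCR9, RPL13B, RPL30, RPS6B and RPS7A, had 4.30 to 6.43 CPM (median 5.80). The other 123 sites in genes without an annotated branch point had 0.0417 to 465 CPM (median 0.626). The widths of these ranges do not compare, as a range grows with the number of sites. Positions were not joined between the assays, so the sites are not shown to lie in the annotated introns. MPT5, an mRNA-binding Puf protein, had 6.01 CPM, and QCR9, of respiratory complex III, had 5.80 CPM.

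The 15 unannotated introns were short, 63 to 180 bases (median 95), against 71 to 640 bases (median 116) for the 29 annotated ones. The 98 unannotated introns of the whole table had a median of 154.5 bases. The 13 genes had 0.292 to 465 Branch-seq CPM, with a median of 5.26. The unannotated introns of RPS8B, RBS1, MTR2, PUS2 and PTC3 lie outside the gene as annotated in RefSeq, by 8, 22 to 49, 69, 74 and 307 bases. They were given the nearest gene on their strand.

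Unannotated introns mostly had high PSI, here as in the whole table. In WT the median was 0.985 for these 15 and 0.98 for all 94 tested against dbr1_null. In 9 of the 15, no library in any group was below 0.8. In 7 of the 15, no library in any group was below 0.9. These were NTH1, a trehalase (0.97 to 1 over all libraries), TVP15, a Golgi protein (0.97 to 1), LSM2 (0.97 to 1), RSB1, of sphingoid base export (0.94 to 1), RPL30 (0.93 to 1), NVJ2, of the nucleus-vacuole junction (0.90 to 1), and ECM9 (0.90 to 1). PTC3, a type 2C protein phosphatase, ran from 0.86 to 0.99, PUS2 from 0.85 to 0.98 and MRM2 from 0.69 to 0.97. The high Branch-seq values of MRM2 and PUS2 thus went with introns that most transcripts kept.

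RBS1 had 3 unannotated introns that share a 5′ splice site at sacCer3 chrIV:122078 and end at 122167, 122186 and 122194. Their 3′ ends lay 7, 26 and 34 bases past the Lariat-seq branch point, against a median of 34 bases (11 to 164) for 38 introns with an annotated Lariat-seq branch point. Over all libraries their PSI ran from 0.68 to 0.97, 0.73 to 0.95 and 0.64 to 0.97.

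MTR2 and RPS8B were the 2 genes whose unannotated intron was spliced in a large part of transcripts. MTR2 had group means from 0.455 in sk1, where the libraries were 0.63 and 0.28, to 0.835 at 3 h of sporulation, where they were 0.79 and 0.88. Its libraries in +rap (0.79 and 0.86) were above the 1 library of -rap with a value (0.51), a difference that was not tested.
The RPS8B intron, sacCer3 chrV:362913-363092, does not contain the Lariat-seq branch point assigned to the gene, which belongs to a 5′ splice site at 362733. The unannotated Branch-seq site of RPS8B is at chrV:362830 on sacCer2. This intron is therefore not shown to be the one that the unannotated branch point belongs to. The values that follow are those of the intron. The intron's PSI was 0.18 and 0.21 in dbr1_null, 0.20 and 0.20 in upf1_null and 0.14 and 0.12 in WT. In the Ribo-Zero libraries it had 1 and 1 in dbr1, 0.14 and 0.13 in sk1, 0.37 and 0.62 in +rap and 0.14 and 0.19 in -rap. Over sporulation it had 0.19 and 0.27 at 0 h, 0.11 and 0.30 at 3 h, 0.10 and 0.13 at 6 h and 0.20 in 1 library at 12 h. The dbr1 libraries were thus above every other library.

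**Figure D3:**
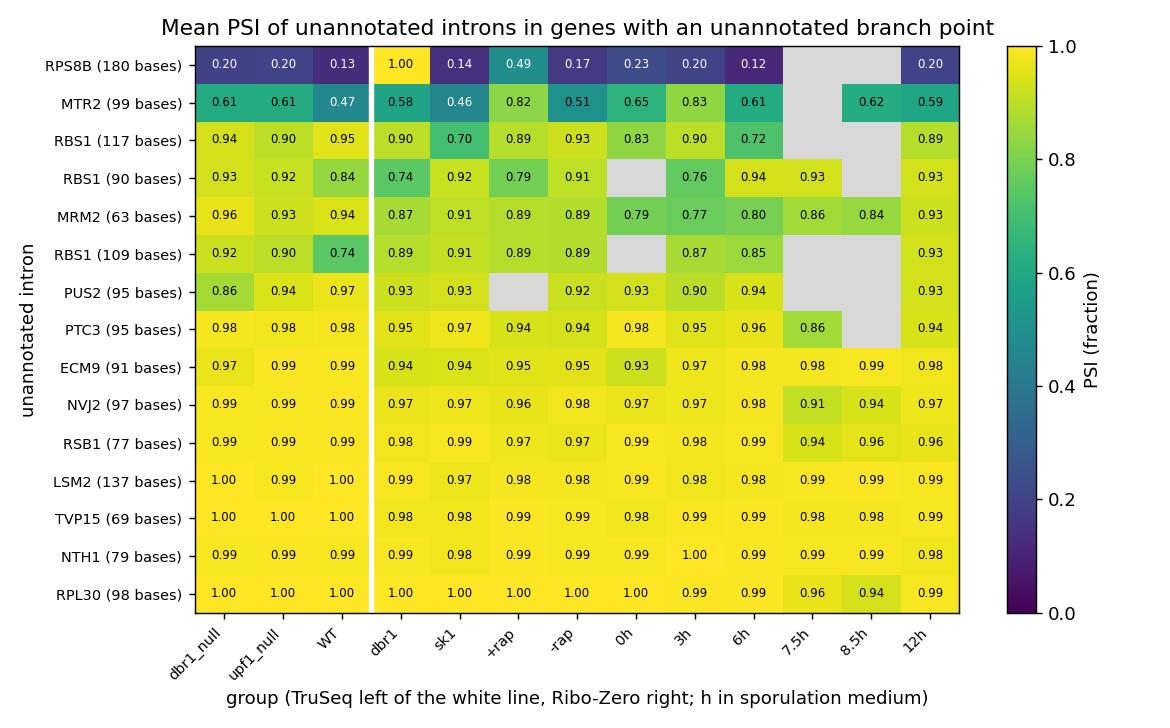
Mean PSI of the 15 unannotated introns (rows, with their length in bases) in genes with an unannotated branch point, over the 13 groups, each the mean of up to 2 libraries, with grey where no library had a value. Rows other than RPS8B and MTR2 stay at 0.7 or above, and RPS8B is at 1 in dbr1.

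PSI was tested between groups as log2 odds with limma over the whole table, two-sided, at an adjusted p under 0.05 (Benjamini-Hochberg). In dbr1_null against WT, 2.39% of 377 events rose and 0.265% fell, and of the 49 events in genes with an unannotated branch point 1 rose and none fell. An unadjusted p under 0.05 was found for 10 of the 49 events, against 78 of all 377, and for 3 of their 15 unannotated introns, against 12 of all 94. The 1 was the annotated intron of RPL26B, with 0.99 and 0.99 in dbr1_null and 0.07 and 0.05 in WT (9.42 log2 odds, SE 0.18, adjusted p = 0.00114). The 3 unannotated introns were RPS8B (0.18 and 0.21 in dbr1_null, 0.14 and 0.12 in WT), the RBS1 intron ending at 122186 (0.89 and 0.95, against 0.73 and 0.76) and PUS2 (0.85 and 0.88, against 0.96 and 0.98). Their adjusted p were 0.124, 0.171 and 0.105.

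In upf1_null against WT, 11.8% of 382 events rose and 1.05% fell, and of the 49 events 5 rose and 1 fell, shares near that background. PRE3, a proteasome subunit, had 0.28 and 0.32 in upf1_null and 0.10 and 0.09 in WT (1.93 log2 odds, SE 0.14, adjusted p = 0.0116), RPL13B had 0.19 and 0.22, against 0.12 and 0.10, RPL21A 0.10 and 0.10, against 0.06 and 0.05, and SPO1 0.98 and 0.98, against 0.93 and 0.94. The A5SS event of RPL30 had 0.72 and 0.71 in upf1_null and 0.63 and 0.64 in WT. Each of these 5 calls was lost when at least 3 of the 4 libraries of the comparison were left out in turn.
The fall was the unannotated intron of LSM2, at 0.99 and 0.99 in upf1_null and 1 and 1 in WT (adjusted p = 0.000407). That is 1 step of a table with 2 decimals, and replicates that are identical after rounding leave no spread of their own. RPS8B (0.20 and 0.20 in upf1_null, 0.14 and 0.12 in WT) and the RBS1 intron ending at 122186 (0.93 and 0.87, against 0.73 and 0.76) had adjusted p of 0.0627 and 0.173.

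In the Ribo-Zero libraries, 43.3% of 319 events rose in dbr1 against -rap and 0.94% fell. Of the 40 tested events in genes with an unannotated branch point 13 rose and 1 fell. The largest differences were in RPS7A (0.99 and 0.99 in dbr1, 0.07 and 0.07 in -rap), RPL26B (1 and 1, against 0.07 and 0.10) and EFB1 (0.97 and 0.97, against 0.08 and 0.06). In log2 odds they were 9.20 (SE 0.51), 9.96 (SE 0.63) and 8.18 (SE 0.39), with adjusted p of 3.09e-08, 1.51e-08 and 3.25e-09.
RPL36B, RPL13B, RPS6B, RPL37A and RPL21A likewise had 0.91 to 1 in dbr1 and 0.07 to 0.16 in -rap. RPL30, which represses its own splicing, had 0.93 and 1 in dbr1 and 0.38 and 0.43 in -rap (adjusted p = 0.00252). Of the 14 unannotated introns tested 1 rose, against 14 of 87 (16.1%) in the whole table. It was that of RPS8B, with 1 and 1 in dbr1 and 0.14 and 0.19 in -rap (8.94 log2 odds, SE 0.60, adjusted p = 3.64e-07).
The other calls, named after their values were seen, were QCR9 (1 and 1 in dbr1, 0.47 and 0.44 in -rap), MPT5 (1 and 1, against 0.82 and 0.69), the A5SS event of RPL30 (0.99 and 1, against 0.83 and 0.67) and the fall of an A3SS event of RPS7A (0.93 and 0.90, against 1 and 1). All 7 annotated introns in genes without an annotated Branch-seq site were among the rises, against 58.0% of the 205 annotated introns tested. These 7 have 213 to 640 bases, and the 205 include shorter introns. Among introns of all other genes with at least 180 bases, 71.6% rose, so the 7 are not shown to differ from long introns in general.

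The same introns had low or middle values in the TruSeq dbr1_null libraries, apart from RPL26B. RPS7A had 0.05 and 0.04 in dbr1_null and 0.04 and 0.03 in WT, RPS6B 0.09 and 0.08, against 0.08 and 0.05, and EFB1 0.08 and 0.32, against 0.06 and 0.08. RPL36B, RPL13B, RPL37A, RPL21A and RPS8B had 0.07 to 0.21 in dbr1_null, and RPL30, MPT5 and QCR9 had 0.33 to 0.58. The TruSeq libraries are labelled polyA and the Ribo-Zero libraries riboZero, so the sets differ in how RNA was selected. The part of this in the contrast was not tested. Whether reads from excised introns enter PSI is not stated in the labels. A PSI near 1 in the Ribo-Zero dbr1 libraries is reported as a value and not as unspliced mRNA.

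The introns that rose in Ribo-Zero dbr1 were the long ones. The 12 that rose, 11 annotated introns and that of RPS8B, had 180 to 640 bases, while the 23 not called, 10 annotated and 13 unannotated, had 63 to 156 bases. The 13 unannotated ones already had a mean PSI of 0.885 to 1 in -rap, which left little room to rise. The same holds for the annotated introns of EFM5 (0.97) and TDA5 (0.955), while the other annotated ones not called had 0.095 to 0.715. Among introns of all other genes, 111 of 155 (71.6%) with at least 180 bases rose, against 10 of 102 (9.80%) shorter ones. This limit was chosen after the values were seen, and the PSI in -rap of the other genes' introns was not taken into account. Of the 12, 9 lie in ribosomal protein genes, so length and that gene group moved together, and their parts in the result were not tested.
Of the short introns not called, 3 with low PSI in -rap are given as examples. SEC14 had 0.13 and 0.13 in dbr1 and 0.14 and 0.07 in -rap, PRE3 0.16 and 0.14, against 0.09 and 0.10, and CPT1 0.33 and 0.30, against 0.18 and 0.29. None of these 3 passed the test (adjusted p 0.58, 0.0743 and 0.661).

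**Figure D4:**
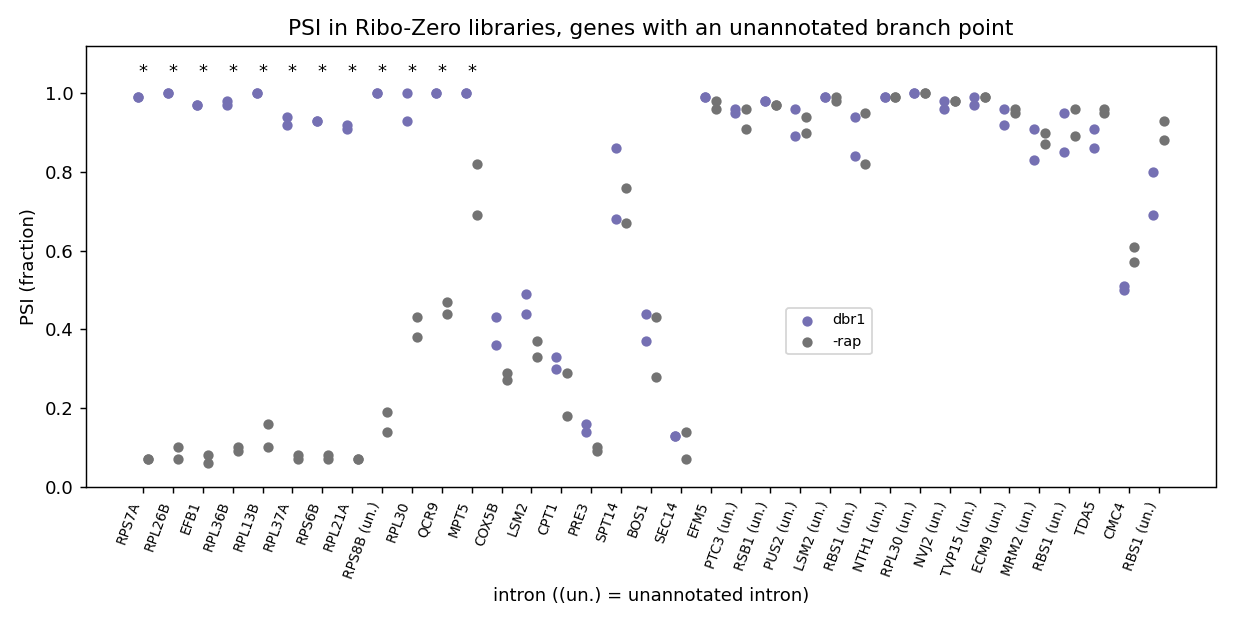
PSI in each of the 2 dbr1 (left) and 2 -rap (right) Ribo-Zero libraries for the 35 tested introns of genes with an unannotated branch point, ordered by their difference, with a star at an adjusted p under 0.05 and (un.) for unannotated introns. The starred introns reach 0.91 or more in dbr1, and the other introns differ between the groups by 0.16 or less.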

How the data were processed

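Bowtie 1.0.0 and sacCer2 are given for Branch-seq, and sacCer3 for the other libraries, per the submitters' processing notes. CPM values were deposited for Branch-seq, with their total not given in the sources used here. All 268 unannotated and 198 annotated values (100%) were whole multiples of 0.0417 CPM within 0.1 read, which puts the scaling total at 23967614 reads. No count test was possible with 1 column. The 1030248 listed reads are 4.30% of that total. The authors deposited Lariat-seq junction reads per site as lists of read counts, which were summed. Each Lariat-seq site and PSI event was given the gene it overlaps on its strand, on the R64 assembly of RefSeq. Where there was none, it was given the nearest gene of that strand within 500 bases. The deposited PSI is a fraction from the authors with 2 decimals and unknown depth. Between 231 and 394 events had a value per library.

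Gene names were matched between the lists exactly, and 147 of 149 were in RefSeq. PSI was taken to log2((PSI + 0.01)/(1 − PSI + 0.01)) and fitted with limma 3.58.1 in R 4.3.3, with a mean for each group, over all libraries of a kit. Events needed values in all 4 libraries compared. The script was tested on simulated data. The labels do not say whether replicates are separate cultures, so p-values measure the spread between these libraries.

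The members and gene lists were chosen with earlier results of these data known. Named are the 10 highest sites of each class, genes with a Lariat-seq site or unannotated intron, and up to 10 called events per comparison. One site that this rule names is not reported here. No sequence is shown, as no genome was used here.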

Additional observations from a re-analysis of the deposited data

How the results depend on the processing

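The median of unannotated sites, 0.626 CPM, became 1.38 CPM without sites up to 0.292 CPM. Their share of listed reads, 4.83%, became 4.06% without the highest site of each list and 3.97% with named genes alone. The number of sites beside an annotated branch point was 22 or 23 under every alternative tried. In dbr1_null against WT, 10 events of the whole table were called, 5 on untransformed PSI, and 10 to 26 when 1 library was left out (26 without dbr1_null replicate 1). The call of RPL26B held in all 9 alternatives. In upf1_null against WT, 49 events became 32 on untransformed PSI, 21 with only these groups in the fit, and 16 to 23 when 1 library was left out, and 5 of the 6 named calls were lost in some alternative. In dbr1 against -rap the count was 141, 129 to 143 when 1 library was left out, and 13 of 14 named calls held in all 9 alternatives. The exception was the annotated intron of RPL30 with only these groups in the fit (adjusted p = 0.0803). With the replicate block the counts were 2, 11 and 138, and same-numbered libraries deviated with correlations of 0.311, -0.0979 and -0.132, so the numbers are not shown to pair the libraries. The cause of these shifts was not tested. None of the named calls changed sign. Branch-seq, with 1 pooled value per site, limits every statement on a level to counting error.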
